A study of Mus musculus with 6 samples.

Results

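Imprinted genes are transcribed mainly from a single parental copy, which carries or lacks DNA methylation set in the egg or the sperm. Most lie in clusters in which an imprinting control region governs several genes, and long noncoding RNAs such as H19, Meg3, Airn and Kcnq1ot1 are read within many of them. Many paternally expressed genes are known to promote growth and many maternally expressed ones to restrain it, and a large share of both kinds is active in the developing nervous system. A fixed list of 37 imprinted genes was looked up by gene symbol in the RNA-seq table of 24002 genes, which held all 37. These 37 genes are called the imprinted genes below, and membership was set by gene name.

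R1, a mouse embryonic stem cell line, was kept in medium with LIF, a cytokine that maintains self-renewal, at 1000 U/ml and 15% serum replacement. The cells formed embryoid bodies, free-floating aggregates, in hanging drops over 48 h, and retinoic acid, a morphogen that directs neural differentiation, was then given for up to 6 days at 0.5 mM as the labels state it. Polyadenylated RNA was sequenced in 3 samples of this condition, replicates 1, 2 and 3, and 3 further samples for open chromatin were not used here. No untreated or earlier sample was among those analysed, so the values are levels and not responses to retinoic acid. The reads were not split by parental allele in the table, so which copy was transcribed was not measured, and the parental origin named below is background. Nothing in the labels ties the replicates to separate cultures, and their spread may therefore be technical. A day 6 culture of this kind is a mixture, and fewer cells of a type and less RNA per cell cannot be told apart.

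Expression is given as FPKM, a count of fragments divided by transcript length and by the mapped fragments of the library. Replicate 1 was sequenced 1.56-fold deeper than replicate 2 and 1.17-fold deeper than replicate 3, as read from the steps between low values, and absolute depth is unknown. Neural genes were present, with 14 of 14 neuron markers and 10 of 10 neural progenitor markers at 1 FPKM or more in every replicate. Of all genes, 50.7% reached that level. The median was 105 FPKM for the neuron markers and 38.3 FPKM for the neural progenitor markers. The 20 extraembryonic endoderm markers, genes of the yolk sac lineage, had a median of 7.16 FPKM. Of these, 18 also reached 1 FPKM in every replicate. Of 10 mesoderm and fibroblast markers none did, and of 9 trophoblast markers 2 did, the keratin genes Krt8 and Krt18, while the imprinted gene Ascl2, also a marker on that list, did not. Of 6 markers of pluripotent cells, 2 did.

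Most of these 37 genes, a list chosen with earlier results of these data known, were present. Of the 37, 32 (86.5%) stood at 1 FPKM or more in every replicate and are called expressed, where 50.7% of all 24002 genes did. Their median level was 15.2 FPKM, where that of all genes was 1.31, and 7 had a mean of at least 100 FPKM. None was listed at 0 in all replicates. The genes just inside the threshold were Rtl1, with 1.03, 1.05 and 1.18 FPKM in replicates 1, 2 and 3, and Slc38a4, with 1.04, 1.74 and 1.35. Just outside were Ascl2, with 0.951, 0.928 and 0.979 FPKM, and Zim1, with 0.990, 1.03 and 0.798. The remaining genes below it were Nespas, Kcnq1ot1 and Phlda2. By known parental origin, 23 of 25 paternally expressed genes were expressed (median 10.3 FPKM), and so were 7 of 10 maternally expressed genes (median 21.6 FPKM). Gnas and Grb10, whose expressed copy differs by transcript or by cell type, were both expressed. By kind of transcript, 26 of 29 protein-coding genes and 6 of 8 long noncoding RNA genes were expressed. Members of a cluster share control elements, so these genes are not independent of each other. Of 49 further imprinted genes described below, 51.0% were expressed, so the share among the 37 cannot be extended to imprinted genes in general.

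**Figure D1:**
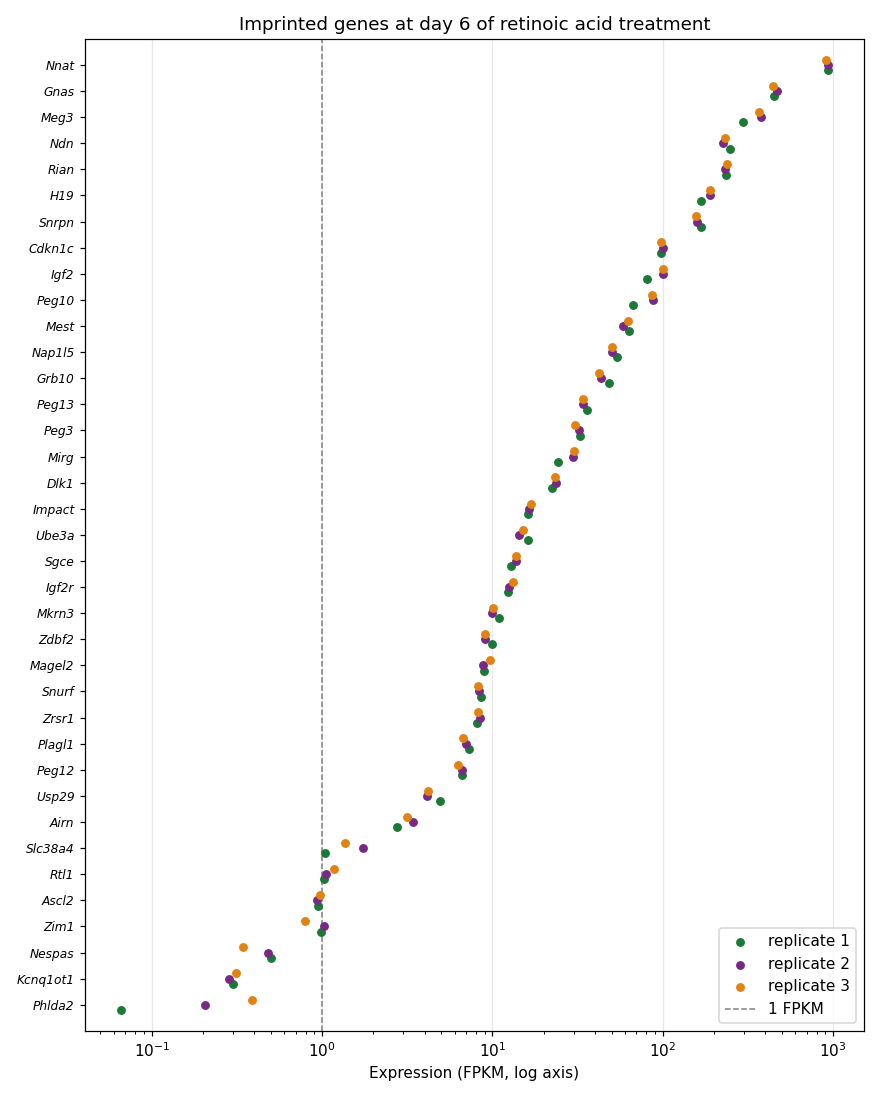
Expression of the 37 imprinted genes (rows, ordered by mean) in FPKM on a log axis, with a point for each of the 3 RNA-seq replicates and a dashed line at 1 FPKM. Nnat stood highest at 912 to 934 FPKM, and the 5 genes at the bottom, from Ascl2 to Phlda2, did not reach 1 FPKM in every replicate.

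In the order of levels, neighbours among the 32 expressed genes were mostly separated by more than the range of the replicates. Of the 31 neighbouring pairs, 23 had ranges that did not overlap, over means from 1.09 to 924 FPKM. The count was not made for other genes, so it describes this order alone and no trait of imprinted genes. The 8 pairs whose order was not resolved included Ndn and Rian, H19 and Snrpn, Cdkn1c and Igf2, and Igf2 and Peg10. Without replicate 1, 3 pairs overlapped instead of 8. The spread between replicates was close to that of all genes above the same minimum mean, although the sets were not matched for level beyond it. For the 22 imprinted genes that averaged 10 FPKM or more the median coefficient of variation was 3.73%, and for the 6116 genes of that level in the table it was 3.52%.

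The highest imprinted gene was Nnat, which encodes neuronatin, a small membrane protein of developing neurons. It stood at 934, 926 and 912 FPKM in replicates 1, 2 and 3 (mean 924 ± 10.8, SD, n = 3), rank 28 of all genes. Nnat lies within an intron of Blcap, which stood at 62.2 ± 0.621 FPKM, so that Nnat was 14.9 ± 0.0294 times as high as its host. The replicates agree closely on this ratio. Other imprinted genes that lie within or beside another gene differed from it in level as well. Nap1l5, a nucleosome assembly protein-like gene in an intron of Herc3, stood at 53.5, 50.2 and 50.5 FPKM, 10.7 ± 0.569 times its host (4.81 ± 0.232). Peg13, a noncoding RNA within Trappc9, stood at 35.7, 33.8 and 33.8 FPKM, 3.31 ± 0.174 times Trappc9 (10.4 ± 0.222).

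Zrsr1, a gene related to splicing factors that lies in an intron of Commd1, showed the opposite order. It stood at 8.10, 8.43 and 8.17 FPKM, while Commd1, a gene of copper homeostasis, stood at 52.7 ± 2.27, 6.40 ± 0.306 times as high. Mest, which encodes a hydrolase-like protein and lies beside Copg2, stood at 62.9, 58.7 and 62.6 FPKM, 1.42 ± 0.0169 times Copg2 (43.2 ± 1.46). Host and intronic gene overlap, and how reads in the overlap were shared, and on which strand, is not stated in the labels or processing notes. These levels are therefore uncertain where exons of the pair overlap.

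Several of the transcripts are also known as sources of microRNAs, so a selection of the 64 mature sequences within their RefSeq spans is shown, with bases 2 to 8, the seed that pairs with targets, in capitals. Sequences and positions are from RefSeq, build GRCm38.p6.
mmu-miR-675-5p (within H19, chr7:142577112-142577133, minus strand): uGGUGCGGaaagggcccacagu
mmu-miR-675-3p (within H19, chr7:142577078-142577099, minus strand): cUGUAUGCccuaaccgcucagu
mmu-miR-483-3p (within Igf2, chr7:142654932-142654952, minus strand): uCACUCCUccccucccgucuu
mmu-miR-335-5p (within Mest, chr6:30741314-30741336, plus strand): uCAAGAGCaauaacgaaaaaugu
mmu-miR-770-5p (within Meg3, chr12:109563710-109563731, plus strand): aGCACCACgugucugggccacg
mmu-miR-127-3p (within the span of Rtl1, chr12:109592888-109592909, plus strand): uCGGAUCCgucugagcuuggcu
mmu-miR-433-3p (within the span of Rtl1, chr12:109591781-109591802, plus strand): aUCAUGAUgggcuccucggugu
mmu-miR-370-3p (within Rian, chr12:109618305-109618326, plus strand): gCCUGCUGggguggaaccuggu
mmu-miR-453 (within Mirg, chr12:109735669-109735692, plus strand): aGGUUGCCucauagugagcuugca
mmu-miR-496a-5p (within Mirg, chr12:109739132-109739152, plus strand): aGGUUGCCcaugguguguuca
mmu-miR-410-3p (within Mirg, chr12:109743764-109743784, plus strand): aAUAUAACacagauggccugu
The span of Impact was left out of this search. Among the others, 33 microRNA hairpins lay within the spans of 8 imprinted genes. Of these hairpins, 15 were in that of Rtl1, 10 in Mirg and 3 in Rian. Of their mature sequences, miR-453 and miR-496a-5p share a seed, and so do the corresponding arms of the related hairpins Mir3070a and Mir3070b. The table listed all 33 microRNA genes, 32 of them at 0 in every replicate and Mir770 at 9.54e-128, 0 and 7.67e-152 FPKM. Of all 912 microRNA genes that could be matched, 894 (98.0%) were listed at 0. Libraries of polyadenylated RNA do not hold mature microRNAs, so these entries say nothing of microRNA levels, and only the host transcripts were measured.

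In the Dlk1-Meg3 cluster the noncoding RNAs Meg3 and Rian stood far above the other members, and Mirg lay close to the coding gene Dlk1. Meg3, a maternally expressed long noncoding RNA, stood at 297, 375 and 366 FPKM in replicates 1, 2 and 3. Rian, the noncoding RNA that carries small nucleolar RNAs, stood at 236, 232 and 237, and Mirg, the noncoding host of a microRNA cluster, at 24.3, 29.5 and 30.0. Meg3 and Mirg were lowest in replicate 1, and Rian was level across the replicates. Dlk1, a paternally expressed membrane ligand related to Notch ligands, stood at 22.5, 23.4 and 23.3 FPKM, and Rtl1, a retrotransposon-derived gene, at 1.09 ± 0.0833. Meg3 was 15.0 ± 1.53 times as high as Dlk1 (SD, n = 3), 12.4 ± 0.273 times as high as Mirg and 1.47 ± 0.189 times as high as Rian. Within each library the ratio of Meg3 to Mirg was 12.2, 12.7 and 12.2, while that of Meg3 to Rian was 1.26, 1.62 and 1.54. Both Dio3 (7.21 ± 0.359), which encodes a thyroid hormone deiodinase, and Begain (34.7 ± 1.22), genes that flank the cluster and were not among the 37, were expressed. Apart from Mir3544 and Mir3071, the microRNAs of the Rtl1 span are known to be read from the opposite strand. Without strand, the low Rtl1 values therefore cannot be told apart from antisense RNA.

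Both genes of the Igf2-H19 cluster were high. Igf2, the paternally expressed insulin-like growth factor, stood at 80.6, 99.9 and 101 FPKM, and H19, the maternally expressed noncoding RNA that shares its enhancers, at 167, 189 and 190. Both were lowest in replicate 1, and their ranges did not overlap. H19 was 1.95 ± 0.106 times as high as Igf2. The neighbouring gene Mrpl23, a mitochondrial ribosomal protein gene, stood at 57.3 ± 4.17 FPKM, whereas Ins2, the insulin gene next to Igf2, was listed at 0 in every replicate.

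Igf2r, whose protein clears IGF2 from the cell surface, stood at 12.4, 12.5 and 13.1 FPKM, and Airn, the paternally expressed noncoding RNA that overlaps it on the opposite strand, at 2.76, 3.41 and 3.16. Igf2r was 4.10 ± 0.406 times as high as Airn, a ratio that depends on how overlapping reads were assigned. Igf2 stood 7.39 ± 0.769 times above Igf2r. Grb10, an adaptor that restrains insulin and IGF receptor signalling, stood at 48.2, 43.5 and 42.3 FPKM. Of 20 further genes of the IGF axis, 17 were expressed, where 50.7% of all genes were. Their median was 12.5 FPKM, where that of all genes was 1.31. The highest were the binding protein genes Igfbp5 (225 ± 10.9) and Igfbp2 (211 ± 7.03) and the adaptor gene Grb2 (72.9 ± 2.40). The receptor gene Igf1r stood at 12.6 ± 0.701 and the ligand gene Igf1 at 2.26 ± 0.113, far below Igf2. The 3 members under the threshold were Igfbp7 (0.431 ± 0.147), Igfbp6 (0.145 ± 0.0505) and Irs4 (0.0731 ± 0.0361).

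The 7 genes of the Prader-Willi and Angelman cluster were all expressed, where 50.7% of all genes were. Ndn, which encodes necdin, a growth suppressor of postmitotic neurons, led with 250, 226 and 232 FPKM. Snrpn, whose product is a component of spliceosomes, stood at 167, 159 and 156. Both were highest in replicate 1. The other genes lay far lower, with Snrpn 10.6 ± 0.393 times above Ube3a, the highest of them. Ube3a, a ubiquitin ligase gene whose paternal copy is known to be silenced in neurons, stood at 15.2 ± 0.867 FPKM, Mkrn3, a makorin ring finger gene, at 10.3 ± 0.552, Magel2, a MAGE family gene like Ndn, at 9.14 ± 0.490 and Peg12 at 6.52 ± 0.222. Ndn stood 22.9 ± 0.215 times above Mkrn3, 25.9 ± 2.02 times above Magel2 and 36.2 ± 1.87 times above Peg12.

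Snurf and Snrpn are known to be encoded by a shared bicistronic transcript, yet the table listed Snurf at 8.61, 8.36 and 8.26 FPKM, so that Snrpn stood 19.1 ± 0.285 times higher. In RefSeq the start of Snurf coincides with a start of Snrpn, and the sequence before it is shown because it serves both entries.
Snurf and Snrpn, chr7:60005200-60005449, minus strand: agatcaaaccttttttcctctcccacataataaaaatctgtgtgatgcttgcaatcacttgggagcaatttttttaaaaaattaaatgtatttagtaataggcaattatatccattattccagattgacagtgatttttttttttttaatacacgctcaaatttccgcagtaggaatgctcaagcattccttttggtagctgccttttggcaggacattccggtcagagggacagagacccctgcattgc
This stretch of 250 bases holds 3 CpG dinucleotides and 36.8% G and C. How fragments of the shared transcript were divided between the entries is not stated in the labels or processing notes, so the split is uncertain and neither level should be read alone.

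The Peg3 cluster showed a graded set of levels. Peg3, a zinc finger gene expressed in brain and placenta, stood at 32.7, 32.1 and 30.6 FPKM. Usp29, a ubiquitin protease gene, stood at 4.95, 4.12 and 4.20, and Zim1, a maternally expressed zinc finger gene, at 0.938 ± 0.124. Peg3 was 7.22 ± 0.60 times as high as Usp29 and 34.2 ± 3.72 times as high as Zim1. Zim3, a further gene of the cluster that was not among the 37, stood at 3.87 ± 0.625 FPKM. The starts of Peg3 and Usp29 lie 164 bases apart and point away from each other. The 163 bases below, on the Peg3 strand, were cut from the far end of the stretch before the Peg3 start. They run past the Usp29 start and leave out bases next to the Peg3 start. The positions printed with them are those of the interval between the starts, and not of these bases.
Peg3 and Usp29, chr7:6730420-6730582, minus strand: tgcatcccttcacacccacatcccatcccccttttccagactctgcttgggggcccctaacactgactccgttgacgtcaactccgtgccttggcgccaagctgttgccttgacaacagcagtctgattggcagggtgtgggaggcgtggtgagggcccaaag
Peg10 and Sgce are known to share a promoter region. Peg10, a retrotransposon-derived gene required for the placenta, stood at 66.6, 87.5 and 86.7 FPKM, and Sgce, which encodes epsilon-sarcoglycan, at 12.8, 13.8 and 13.8. Peg10 was 5.94 ± 0.626 times as high as Sgce, with 5.22 in replicate 1 as the lowest of the 3 ratios. Casd1, the neighbour of Sgce on its other side, stood at 10.9 ± 0.204 FPKM.

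Of the 4 genes of the Kcnq1 cluster among the 37, 1 was expressed, where 50.7% of all genes were. Cdkn1c, which encodes the cyclin-dependent kinase inhibitor p57 and marks cells that leave the cell cycle, stood at 97.7, 100.1 and 97.3 FPKM. Ascl2, a transcription factor gene of trophoblast progenitors, stood at 0.953 ± 0.0255, Kcnq1ot1, the paternally expressed noncoding RNA of the cluster, at 0.301, 0.285 and 0.311, and Kcnq1 itself at 0, 0.0363 and 0.0820. Cdkn1c was 330 ± 20.0 times as high as Kcnq1ot1 and 103 ± 4.27 times as high as Ascl2.

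Phlda2, a growth-restraining gene of the placenta, was the lowest of the 37, at 0.0657, 0.206 and 0.389 FPKM. After correction for relative depth these values stood at 1 to 2.01 to 5.04, so a few fragments may make up each of them, and the order of the replicates should not be read. The trophoblast gene Elf5 was likewise near 0 (0.0173, 0.0539 and 0.102). Kcnq1ot1 is a long, mostly unspliced nuclear RNA, and its recovery in a polyadenylated library was not tested.

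**Figure D2:**
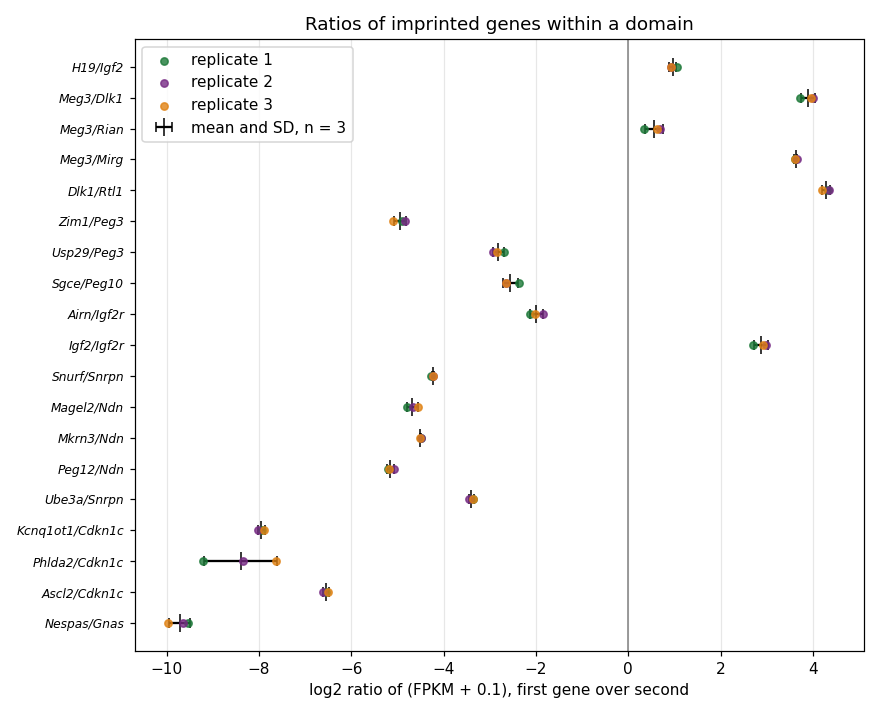
Log2 ratio of FPKM + 0.1 for 19 pairs of imprinted genes, mostly of a shared cluster (rows, first gene over second), with a point for each replicate and a bar for the mean ± SD (n = 3). The SD was at most 0.23 except for Phlda2 over Cdkn1c (0.78), which rests on the very low values of Phlda2.

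Gnas, the gene of the stimulatory G protein alpha subunit, was the second highest member at 448, 465 and 445 FPKM. The locus makes several transcripts from alternative starts, of maternal, paternal or biallelic origin, and the table gives a single value for all of them. Nespas, the paternally expressed antisense RNA of the locus, stood at 0.503, 0.481 and 0.343 FPKM. Nespas and Gnas transcripts overlap on opposite strands, so the low value of Nespas is uncertain.

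Of the genes that stand alone, transcriptional and translational regulators were at moderate levels. Plagl1, a zinc finger transcription factor known to regulate other imprinted genes, stood at 7.32, 7.0 and 6.69 FPKM. Zdbf2, a gene with a DBF zinc finger, stood at 9.35 ± 0.499, and Impact, an inhibitor of the kinase that represses translation under amino acid shortage, at 16.5 ± 0.370. Slc38a4, an amino acid transporter gene of liver and placenta, stood near the threshold at 1.38 ± 0.353 FPKM and had the largest relative spread of the 32 expressed genes, with a coefficient of variation of 25.6%.

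Few imprinted genes stood apart in replicate 1 at the planned margin of 25%, and their count lay near the share of all genes. Of the 32 that averaged 1 FPKM or more, 2 were lower there by a margin at which both other replicates exceeded it by at least 25%, Peg10 and Slc38a4, where 3.87% of the 12432 genes of that level were. None exceeded both others by at least 25% in replicate 1, where 0.595% of genes did. Slc38a4 lies near 1 FPKM, and with a mean of at least 5 FPKM required the lower count was 1. Just under that margin, Igf2 was 1.24-fold, Meg3 1.23-fold and Mirg 1.22-fold lower in replicate 1 than in the lower of the others. At a margin of 20%, chosen after these values were seen, 5 of the 32 genes were lower in replicate 1, namely Meg3, Igf2, Peg10, Mirg and Slc38a4, where 5.24% of genes were, and none was higher, where 1.05% were. At a margin of 50% the count was 0 in both directions, with 1.02% of genes lower and 0.145% higher. Of the 32, 13 had their lowest value in replicate 1, where 36.5% of genes did, and 15 their highest, where 36.3% did. Those with the highest value there included Ndn, Grb10, Ube3a and Usp29, the last at 1.18-fold above the higher of the others. The median deviation of the imprinted genes from their own means was 0.00, 0.00 and -0.01 in the 3 replicates on the scale of log2(FPKM + 1).

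**Figure D3:**
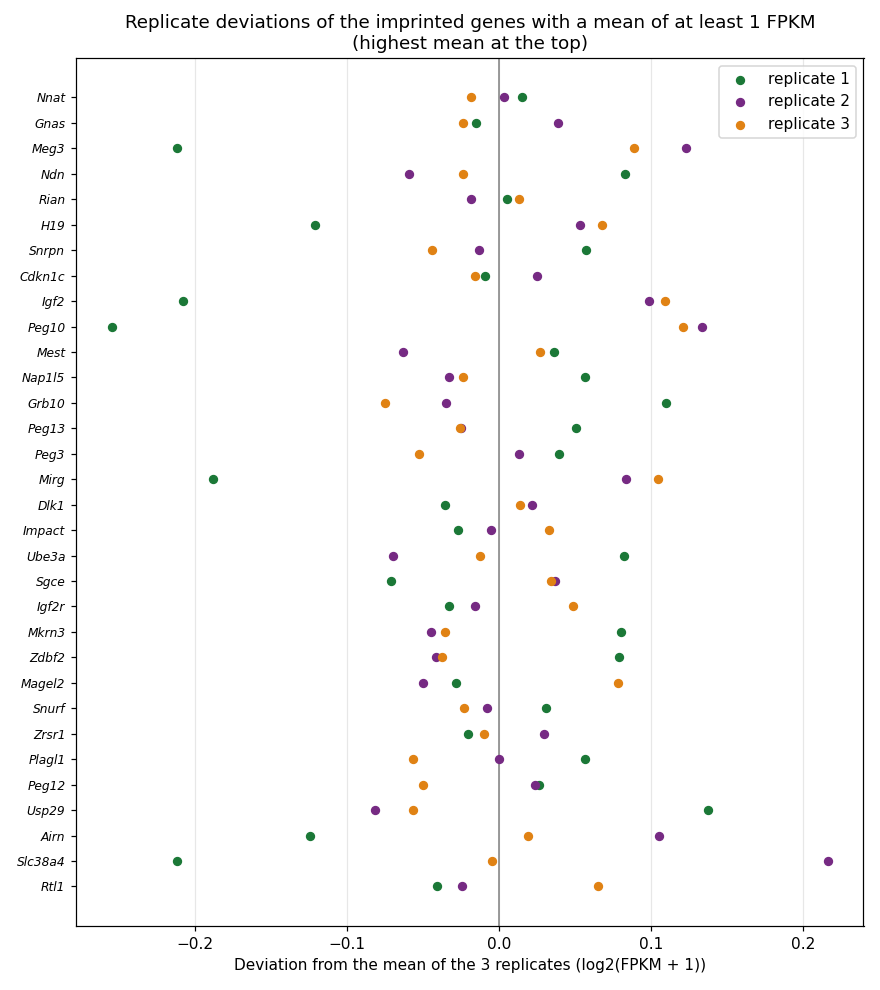
Deviation of each replicate from the mean of the 3 replicates, in log2(FPKM + 1), for the 32 imprinted genes that averaged 1 FPKM or more (rows, highest mean at the top). Replicate 1 lies furthest to the left for Peg10, Meg3, Slc38a4, Igf2 and Mirg, and to the right of both others for Ndn, Grb10, Ube3a and Usp29.

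Markers of extraembryonic endoderm were mostly lower in replicate 1, whereas the imprinted genes as a list had no common direction there. Of the 18 markers of this lineage that averaged 1 FPKM or more, 17 were lowest in replicate 1, where 36.5% of genes were. Afp was the exception, and the median deviations of the 18 were -0.27, 0.14 and 0.13 in the 3 replicates. The 20 markers summed to 552, 758 and 764 FPKM, and none was listed at 0 in every replicate. Of 9 trophoblast markers only the keratin genes Krt8 and Krt18 averaged 1 FPKM or more, so the list does not bear out this lineage. Both keratin genes were also lowest in replicate 1, and Krt8 stood at 22.0, 37.3 and 37.6 FPKM. Neuron markers differed slightly the other way, with 11 of 14 highest in replicate 1, where 36.3% of genes were. Nefm, Isl1 and Chat were the exceptions. The 14 markers summed to 3417, 3276 and 3250 FPKM, with median deviations of 0.04, -0.01 and -0.03. The 10 neural progenitor markers, 5 of them highest and 2 lowest in replicate 1, summed to 1493, 1469 and 1451 FPKM. The part of these cell types in the lower values of Peg10, Igf2, Meg3 and Mirg in replicate 1 was not tested.

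**Figure D4:**
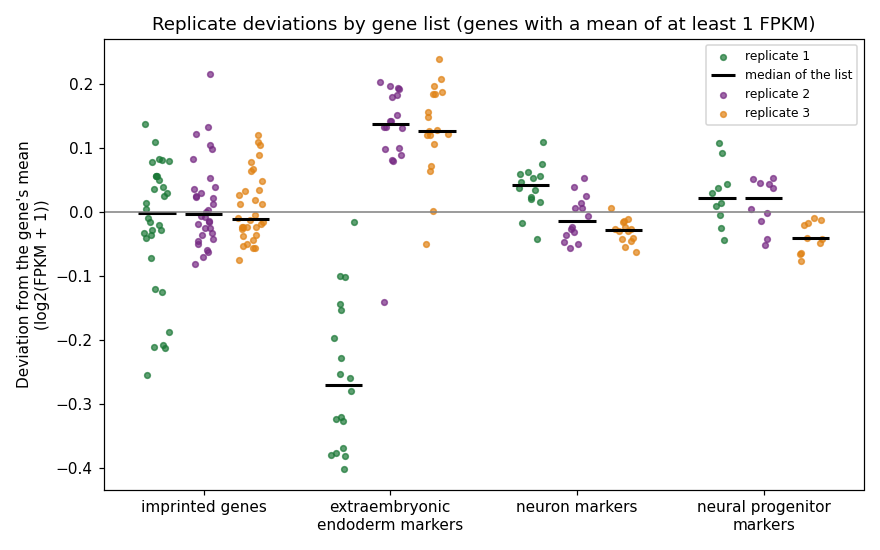
Difference of each gene's log2(FPKM + 1) from its average over the replicates, for the imprinted genes and 3 marker lists, with a point for each gene that averaged 1 FPKM or more and a black line for the median of the list in each replicate. The endoderm markers lie at a median of -0.27 in replicate 1, while the imprinted genes spread to both sides of 0.

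Genes linked to the establishment, maintenance or removal of imprints were largely present. Of 25 such genes, 21 were expressed, where 50.7% of all genes were, and their median was 16.3 FPKM. The highest were Trim28 (96.3 ± 1.91), the corepressor that silences methylated control regions, Zfp57 (77.2 ± 4.97), the zinc finger protein that recruits it, and Mbd3 (60.3 ± 0.767), a subunit of a remodelling complex. The maintenance methyltransferase gene Dnmt1 stood at 20.7 ± 0.404 and its partner Uhrf1 at 13.9 ± 0.163. Zfp57 stood at 71.6, 79.2 and 80.9 FPKM, lowest in replicate 1. Of the members that were not expressed, Dnmt3l (0.0901 ± 0.0463), a cofactor of imprint establishment in germ cells, and Ctcfl (0.467 ± 0.101), a germ cell relative of Ctcf, were low. Dppa3, which protects imprints in the zygote, was listed at 0.113, 0 and 0, and Dnmt3b, a de novo methyltransferase gene, stood at 1.14, 0.985 and 1.31.

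The ZFP57 protein is known to bind TGCCGC when it is methylated, so that word was searched on both strands in the 250 bases before the RefSeq starts of the imprinted genes. Starts were found for 29 of the 37 genes, in 45 windows. TGCCGC occurred in 7 of the 45 windows (15.6%), and in 8.68% of all 32851 windows of that length. A pair of Mest windows overlap almost fully and hold the same matches, and counted by gene it occurred for 6 of 29 (20.7%), and for 9.84% of all genes with a window. Of the member windows, 42.2% had at least 50% G and C and a CpG ratio, observed over expected, of at least 0.6, where 31.0% of all windows had. Within windows of that composition, TGCCGC occurred in 26.3% of 19 from imprinted genes and in 19.8% of all 10189. By gene, the shares were 28.6% of 14 and 21.0% of 9032. The genes with a match were Meg3, Mest, Nap1l5, Plagl1, Zdbf2 and Zim1. Zdbf2 has a further RefSeq start, with its window from chr1:63273019 on the plus strand, and that window held no match. Shown are the Zdbf2 window with 3 matches, the most among these genes, and the Nap1l5 window, with 1. The word or its reverse complement is in capitals.
Zdbf2, chr1:63200108-63200357, plus strand: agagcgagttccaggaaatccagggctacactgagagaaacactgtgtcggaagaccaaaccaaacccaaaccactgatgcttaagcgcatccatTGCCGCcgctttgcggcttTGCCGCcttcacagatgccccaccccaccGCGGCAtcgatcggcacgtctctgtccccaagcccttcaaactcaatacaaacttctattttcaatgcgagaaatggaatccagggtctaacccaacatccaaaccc
Nap1l5, chr6:58907127-58907376, minus strand: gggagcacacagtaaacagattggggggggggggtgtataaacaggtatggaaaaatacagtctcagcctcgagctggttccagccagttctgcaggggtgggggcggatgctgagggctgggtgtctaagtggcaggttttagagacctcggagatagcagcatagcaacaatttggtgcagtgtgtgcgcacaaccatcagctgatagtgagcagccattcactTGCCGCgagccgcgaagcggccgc
The same search for CCATNTT, a core of the YY1 site, found it in 7 of the 45 windows and in 12.4% of all windows. A match is a string of letters and not a bound site, and neither methylation nor binding was measured in these libraries.

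A further list held 49 genes that are known as imprinted, often in placenta or a few tissues alone, and are not among the 37. Of these, 25 (51.0%) were expressed, with a median of 1.26 FPKM, where 50.7% of all genes were. The highest were Cd81 (154 ± 10.6), a tetraspanin gene, Blcap and Mrpl23. Mcts2, which lies within an intron of H13, stood at 19.5 ± 0.369 FPKM and H13, a signal peptide peptidase gene, at 24.4 ± 2.02. Kcnk9, a potassium channel gene, lay at the threshold with 1.35, 1.000 and 1.19 FPKM. The other members under it were the transporter and channel genes Slc22a2, Slc22a3, Slc22a18, Atp10a and Kcnq1, the hormone, enzyme and receptor genes Ins2, Th, Calcr, Htr2a, Gpr1, Ampd3, Art5 and Pon3, and the transcription factor genes Klf14 and Dlx5. Also under it were Asb4, Cobl, Dcn, Nctc1, Phactr2, Rasgrf1, Tfpi2 and Tspan32. Of these genes, Cobl was the highest at 0.882 ± 0.0616 FPKM, and Ins2 and Slc22a2 were listed at 0 in every replicate.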

How the data were processed

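RNA-seq of 3 samples was analysed. Titles gave group and replicate. Per the submitters' processing notes, Bowtie, Cufflinks and mm9 were used, and for versions, annotation and strand nothing is stated there. The header of the table the authors deposited gives no unit, and FPKM was inferred from the use of Cufflinks. The deposited open chromatin regions, in mm9, were not used, as the reference tables are in another build. RefSeq tables (GRCm38.p6) gave sequences, and an Ensembl table held the symbols of all 37 genes.

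Genes that reached 1 FPKM in each of the 3 replicates were called expressed. Ratios within a library were formed from FPKM, and their log2 with a pseudocount of 0.1. Deviations used a pseudocount of 1, which understates differences of low genes. Depth ratios came from genes between 0.001 and 0.1 FPKM, assuming that the most common ratio marks equal read numbers. With 1 condition, no test was made. The depth and replicate steps were tested on simulated data.

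Members and lists were chosen with earlier results of these data known. All 37 members are accounted for. From other lists, the 3 highest genes, those below 1 FPKM in a replicate and every host gene are named. Marker lists are given mainly as counts, and Dnmt1, Uhrf1, Igf1, Igf1r, Dio3, Begain, Zim3 and Mcts2 were added after their values were seen. Dnmt3c, Zim2 and Zfp264 were not matched in the table. Alternatives were other thresholds, pseudocounts, filters and folds, upper quartile scaling and leaving out each replicate. Analysis used Python 3.11.15 with pandas 2.3.3.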

Additional observations from a re-analysis of the deposited data

How the results depend on the processing

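The count of expressed imprinted genes lay between 28 (threshold of 5 FPKM) and 34 (0.5 FPKM), and was 32 under upper quartile scaling, for the mean in place of every replicate, and without each replicate. Their median level stayed within 14.7 to 15.6 FPKM over the alternatives. The count lower in replicate 1 was 0 at a margin of 50%, 1 with a mean of at least 5 FPKM, 1 with a pseudocount of 1 FPKM and 5 at a margin of 20%, an alternative added after the data were seen. Overlapping neighbours numbered 3 to 7 when a replicate was left out, also an added alternative. At 5 FPKM, 16 of the other imprinted genes were expressed, in place of 25.

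No pair ratio within a domain changed sign. With a pseudocount of 1, which pulls ratios towards 0 by construction, log2 ratios were 3.58 for Meg3 over Mirg, 3.53 for Dlk1 over Rtl1, -4.08 for Zim1 and -2.60 for Usp29 over Peg3, -1.74 for Airn over Igf2r, -4.10 for Snurf and -3.32 for Ube3a over Snrpn, and -4.55, -4.39 and -4.98 for Magel2, Mkrn3 and Peg12 over Ndn. They were -6.26, -6.36 and -5.67 for Kcnq1ot1, Phlda2 and Ascl2 over Cdkn1c and -8.30 for Nespas over Gnas. With no pseudocount they were 4.41 for Dlk1 over Rtl1, -5.09 for Zim1 over Peg3, -8.36 and -6.69 for Kcnq1ot1 and Ascl2 over Cdkn1c, and -10.02 for Nespas over Gnas.

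No paired analysis was possible because the RNA-seq samples form a single group, and the open chromatin samples with the same replicate numbers come only as a joint set. Absolute depth is unknown, so no counting error is given.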
